A study of Caenorhabditis elegans with 6 samples.

Results

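The genes described here are the neuropeptide and insulin-like genes of Caenorhabditis elegans, taken as every gene of the count table whose symbol is flp-, nlp- or ins- followed by a number. The rule found 138 of 20182 genes: 31 flp, 69 nlp and 38 ins genes, all annotated as protein coding. RNA was sequenced after removal of ribosomal RNA from early embryos of 3 genotypes, with 2 independently grown cultures each. The mutants were a double deletion of met-2 and set-25 (strain GW638), which encode the methyltransferases for lysine 9 of histone H3, and a deletion of cec-4 (strain GW828), a chromodomain protein that tethers methylated chromatin to the nuclear envelope. The reference strain was the wild-type GW1. Per the labels, worms were synchronised and raised in liquid at 20 °C for 60 to 65 h, by strain, until gravid, and hypochlorite freed their embryos, so each library pools the embryos of 1 bulk culture. The study asked how transcription changes without chromatin anchoring.

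Library totals over genes were 30171874 and 37966640 counts in met-2 set-25, 44546148 and 36564766 in cec-4, and 45677214 and 41662785 in wild-type embryos. Levels are given in CPM (counts scaled to library size), and, to compare genes, in RPKM (CPM per kilobase of coding length). The deleted genes matched the labels: met-2 stood at 80.3 and 72.0 CPM and set-25 at 28.4 and 23.1 CPM in met-2 set-25, against 358 to 416 CPM and 95.3 to 116.95 CPM in the other 4 libraries, and cec-4 stood at 99.7 and 77.9 CPM in the cec-4 strain, against 272 to 316 CPM in the other 4. All 13 maternal early embryo markers were measured, with summed levels between 1332 and 2090 CPM. The 6 vitellogenin genes, which mark the adult intestine, summed to between 12 and 34 counts per library.

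Neuropeptides are cut from longer precursors, amidated and released from dense-core vesicles, and most act on G protein-coupled receptors. The flp genes encode FMRFamide-like peptides, which share an arginine and an amidated phenylalanine at their end. The nlp genes encode other neuropeptide-like proteins, among them antimicrobial peptides of the epidermis. The ins genes encode insulin-like peptides, which activate or block the DAF-2 receptor and so control the FOXO factor DAF-16. Many of these genes are known chiefly from larvae and adults, where differentiated neurons, intestine and epidermis express them.

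Most peptide genes were close to silent in these embryos. Of the 138 genes, 92 had a count in every library, 38 in some libraries and 8 in none. The 8 were ins-15, ins-16, ins-21, ins-23, ins-29, nlp-26, nlp-39 and nlp-81. A count of 0 allows up to 3 counts per library, or 0.0657 to 0.0994 CPM, and covers counting error only. Together the 138 genes took 0.0210% and 0.0221% of all gene counts in met-2 set-25, 0.0162% and 0.0171% in cec-4, and 0.0143% and 0.0202% in wild-type. In wild-type 22 of them reached 1 CPM and 2 reached 10 CPM. Their median wild-type level was 0.458 RPKM, against 2.33 RPKM over all genes. The precursors are also short, with a median coding length of 288 bp against 1008 bp over all genes, which yields fewer reads at the same level. Of the 138 genes 61 (44.2%) passed the filter on low counts, against 69.1% of all genes. By class these were 15 of 31 flp, 34 of 69 nlp and 12 of 38 ins genes. A gene that passed through counts in a single genotype would differ by that fact alone, so counts over the 61 describe the measured genes and not the family.

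**Figure D1:**
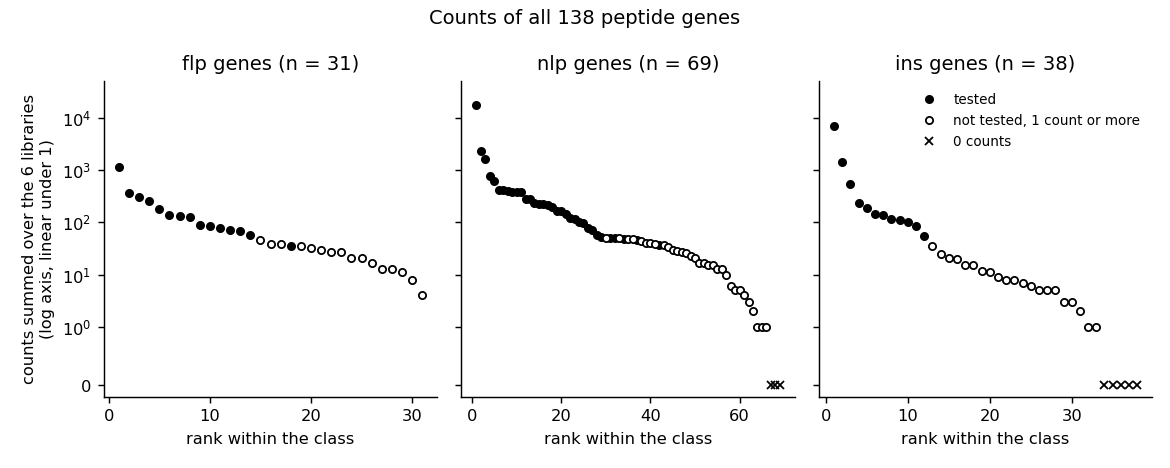
Counts of each peptide gene summed over the 6 libraries (vertical axis, logarithmic above 1) against its rank within the flp, nlp or ins class. Filled points are the 61 genes that passed the filter on low counts, open points the 69 others with a count, and crosses the 8 genes at 0.

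A small set of precursors stood far above the rest, and nlp-31 alone gave 46.0% and 38.6% of the peptide gene counts in met-2 set-25, 40.3% and 42.2% in cec-4, and 34.7% and 45.2% in wild-type. This gene (WBGene00003769; WBcel235 V 3980055 to 3980622, plus strand) encodes a glycine- and tyrosine-rich antimicrobial peptide known from the epidermis. It stood at 96.4 and 79.6 CPM in met-2 set-25, 66.0 and 76.9 CPM in cec-4, and 49.6 and 91.0 CPM in wild-type. The wild-type libraries spanned both cec-4 values and the lower met-2 set-25 value. Its means were 386 ± 52.0 RPKM in met-2 set-25, 313 ± 34.0 RPKM in cec-4 and 308 ± 128 RPKM in wild-type (SD, n = 2 each), and 98.1% of all genes stood at or below it in wild-type. The log2 fold change was 0.32 (95% interval -0.32 to 0.97) in met-2 set-25 and 0.02 (-0.62 to 0.66) in cec-4 against wild-type, with an edgeR quasi-likelihood adjusted p of 1 in both. With 2 libraries a genotype, an exact permutation test of a single gene cannot go below p = 0.333, so all tests here are the edgeR fit across all genes. In bulk embryos fewer expressing cells and less RNA per cell cannot be told apart, for this gene or any that follows.

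The insulin-like gene ins-2 (WBGene00002085; II 5988524 to 5989426) came second. It varied least between libraries among the 4 most abundant precursors, at 31.8 and 31.9 CPM in met-2 set-25, 32.5 and 29.2 CPM in cec-4, and 29.4 and 23.1 CPM in wild-type. Both met-2 set-25 libraries lay above both wild-type libraries, while cec-4 overlapped wild-type. The log2 fold changes against wild-type were 0.28 (95% interval -0.21 to 0.76) in met-2 set-25 and 0.23 (-0.25 to 0.72) in cec-4, each at adjusted p = 1 (edgeR). Summed over the 38 ins genes the level was 46.9 and 44.1 CPM in met-2 set-25, 44.5 and 45.2 CPM in cec-4, and 43.4 and 39.0 CPM in wild-type, most of it from ins-2.

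Next was nlp-36 (WBGene00007185; III 9488731 to 9489186), at 12.02 and 14.4 CPM in met-2 set-25, 8.92 and 8.27 CPM in cec-4, and 9.72 and 6.68 CPM in wild-type. Both met-2 set-25 libraries exceeded the other 4. The difference was 0.69 on the log2 scale (SE 0.279, 95% interval 0.05 to 1.33, edgeR adjusted p = 0.77) in met-2 set-25 and 0.07 (-0.57 to 0.71, adjusted p = 1) in cec-4 against wild-type, so neither passed. The gene lies within dars-1, the aspartyl-tRNA synthetase gene on the opposite strand, though no coding base of nlp-36 falls in a dars-1 coding exon. Transcripts of dars-1 stood between 209 and 288 CPM over the libraries. The sources used here do not say whether the counting used strand, so reads from unspliced dars-1 RNA could be mixed with those of nlp-36. Other members carry a like limit. In all, 29 members overlap a protein-coding gene or pseudogene on the opposite strand and 2 on the same strand. Among those named below, flp-1 overlaps daf-10, nlp-24 overlaps glb-15 and ins-34 overlaps nkcc-1 on the opposite strand. On the same strand nlp-76 overlaps nhr-17.

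Another infection-induced epidermal peptide gene, nlp-33 (WBGene00003771; V 11147346 to 11147737), varied most among the 4 most abundant genes, at 6.89 and 9.71 CPM in met-2 set-25, 4.95 and 7.89 CPM in cec-4, and 2.58 and 10.3 CPM in wild-type. The 2 wild-type cultures held both the lowest and the highest value. Its log2 fold change was 0.37 (SE 0.568) in met-2 set-25 and -0.0037 (SE 0.569) in cec-4 against wild-type, each at adjusted p = 1 (edgeR). After it came ins-34, with 14.2 ± 3.45 RPKM in met-2 set-25, 16.2 ± 6.86 in cec-4 and 13.9 ± 6.70 in wild-type. The antimicrobial gene nlp-29 had 14.6 ± 7.46, 19.0 ± 2.65 and 11.7 ± 8.86 RPKM in the same order. By wild-type level nlp-24 (10.3 RPKM), flp-1 (9.71), ins-35 (8.90), nlp-3 (7.36), nlp-52 (7.16) and nlp-76 (6.89) followed. From ins-34 down, wild-type means next to each other in this order differed by less than the larger SD of the pair, except ins-35 (SD 0.985) and nlp-3 (SD 1.46).

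**Figure D2:**
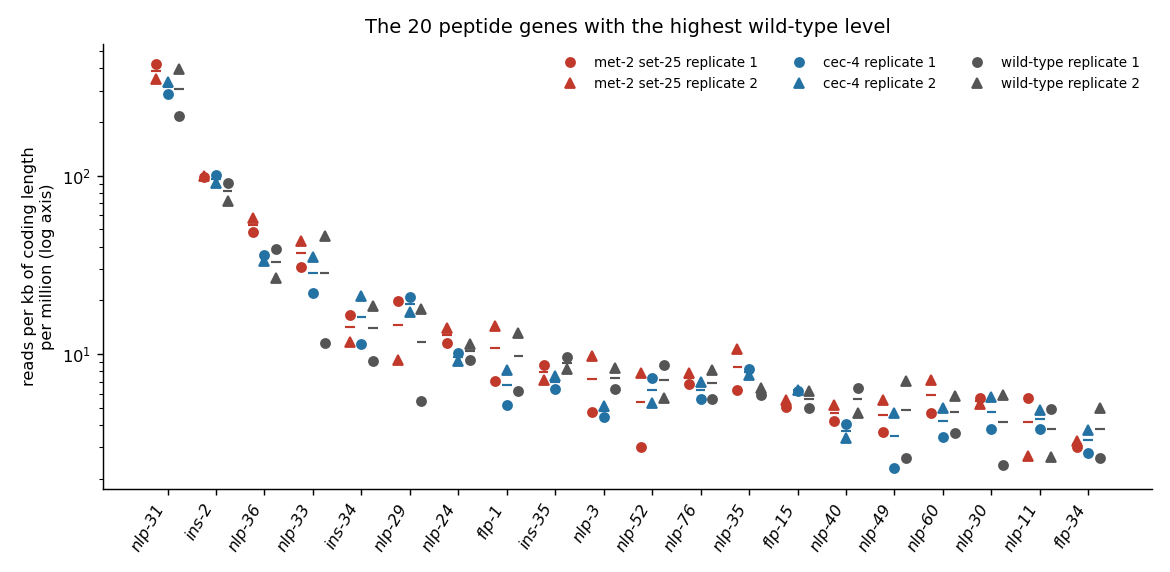
RPKM per library (logarithmic axis) of the 20 peptide genes with the highest wild-type mean, ordered by it; circles are replicate 1, triangles replicate 2 and short lines genotype means. The nlp-31 mean lies at 308 RPKM and that of ins-2 at 81.8 RPKM in wild-type, and the 2 wild-type cultures lie further apart than the genotype means for nlp-31, nlp-33 and nlp-29.

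Among the FMRFamide-like genes flp-1 was the most abundant. It encodes peptides of the AVK interneurons that shape locomotion. It had 3.74 and 7.59 CPM in met-2 set-25, 2.75 and 4.30 CPM in cec-4, and 3.28 and 6.97 CPM in wild-type. The 3 genotypes overlapped. After it came flp-15 at 5.61 ± 0.893, flp-34 at 3.78 ± 1.65 and flp-25 at 3.30 ± 0.0908 RPKM in wild-type (SD, n = 2). The 31 flp genes summed to 14.1 and 20.5 CPM in met-2 set-25, 10.1 and 12.9 CPM in cec-4, and 11.6 and 19.2 CPM in wild-type. Within each genotype the 2 cultures lay further apart than the mean of met-2 set-25 (17.3 CPM) lay from that of wild-type (15.4 CPM). Within each replicate number met-2 set-25 was highest, wild-type next and cec-4 lowest, both for this sum and for flp-1. Between the mutants flp-1 had a log2 fold change of 0.69 (SE 0.478, edgeR adjusted p = 0.681), and with the replicate number as a block 0.64 (SE 0.216, edgeR adjusted p = 0.238). The unadjusted edgeR p was 0.183 without the block and 0.0193 with it.

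Many of these genes lie near one another. Linking members less than 10000 bp apart, on either strand, gave 11 groups with 40 of the 138 genes, namely 25 ins, 12 nlp and 3 flp genes. Levels within a group could differ by orders of magnitude. The antimicrobial group on chromosome V spans 10.9 kb (V 3978825 to 3989770) and holds, in order, nlp-34, nlp-31, nlp-30, nlp-29, nlp-28 and nlp-27. Their wild-type means were 1.86, 308, 4.15, 11.7, 0.0553 and 0.109 RPKM. The outer pair nlp-28 and nlp-27 gave 2 and 4 counts over all 6 libraries, against 17767 for nlp-31. The 4 genes with a mean above 1 RPKM ranked nlp-31, nlp-29, nlp-30 and nlp-34 in all 3 genotypes. Members of this group are related in sequence and the sources used here do not say how reads with several matches were handled, so the counts of nlp-29, nlp-30 and nlp-31 may include reads of one another.

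A group on chromosome II spans 22.8 kb and holds ins-2, ins-3, ins-4, ins-5, ins-6 and ins-20. In wild-type ins-2 stood at 81.8 RPKM, while its neighbour ins-3 stood at 3.42 and ins-6, an activating ligand of DAF-2 that acts in the decision against dauer arrest, at 1.57 RPKM. The other 3 gave between 2 and 3 counts in all. Transcripts of ins-3 had 20 and 18 counts (0.552 ± 0.156 CPM) in met-2 set-25, 59 and 34 counts (1.17 ± 0.244 CPM) in cec-4, and 74 and 25 counts (1.11 ± 0.723 CPM) in wild-type. The met-2 set-25 libraries lay below both cec-4 libraries and overlapped wild-type, and the difference was -1.02 on the log2 scale (standard error 0.538, edgeR adjusted p = 1) against wild-type and -1.10 (SE 0.54, adjusted p = 0.535) against cec-4. With the replicate block the unadjusted edgeR p of ins-3 was 0.0401 against wild-type and 0.0221 against cec-4, and the adjusted p 0.47 and 0.244. Thus ins-2 and ins-3, which lie 673 bp apart, were not alike across the genotypes in their values, but neither passed a test and their difference was not tested.

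**Figure D3:**
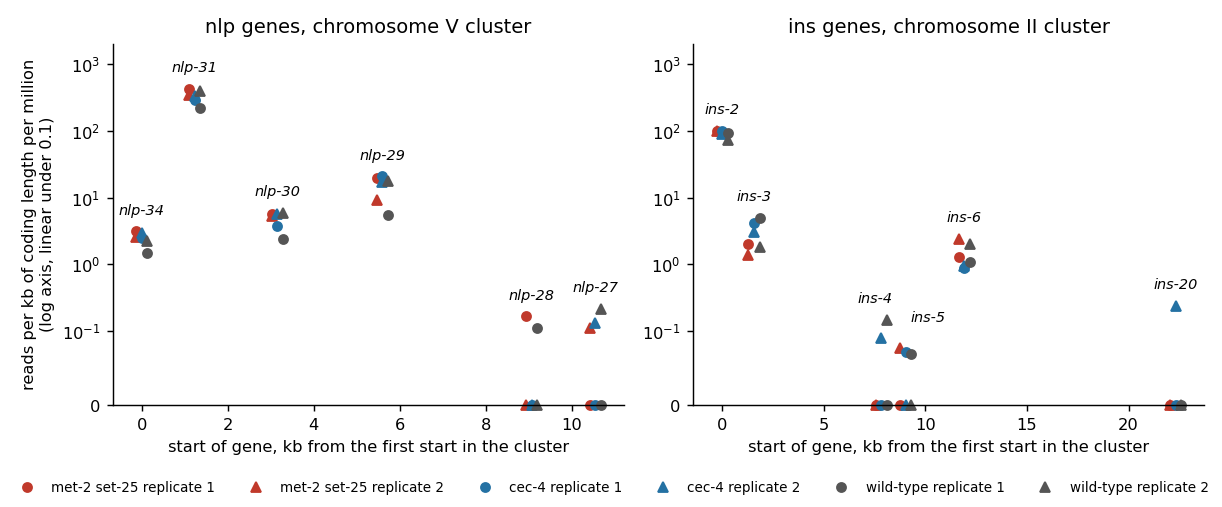
RPKM per library (logarithmic above 0.1) against the start of each gene in kb from the first start. The 2 groups of neighbouring genes are the nlp group of chromosome V and the ins group of chromosome II. In both groups 1 gene, nlp-31 or ins-2, exceeds all its neighbours in each of the 6 libraries.

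Setting met-2 set-25 embryos against wild-type ones asks what follows from losing methylation of histone H3 at lysine 9. None of the 61 measured peptide genes passed (edgeR, adjusted p under 0.05), where 0.688% of all 13951 genes did. At an unadjusted p under 0.05 there were 4 genes, or 6.56% of the members, near the 5.71% of all genes. The 4 were ins-27, flp-22, nlp-15 and nlp-36, all with higher values in met-2 set-25. Of all genes, 4.67% were higher and 1.04% lower at this p. DESeq2 and limma voom also called 0 of them.

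Among the 4, ins-27 (WBGene00002110; I 14027236 to 14027588) had 20 and 26 counts in met-2 set-25 (0.651 ± 0.0166 CPM), against 14 and 10 counts in wild-type (0.273 ± 0.0479 CPM). The groups did not overlap, with a log2 fold change of 1.24 (SE 0.433, edgeR adjusted p = 0.57). The RFamide gene flp-22 had 14 and 35 counts in met-2 set-25 (0.662 ± 0.28 CPM), against 10 and 12 in wild-type (0.253 ± 0.0477 CPM), a log2 fold change of 1.40 (SE 0.492, adjusted p = 0.576). For nlp-15 the values were 1.11 ± 0.0672 CPM from 32 and 47 counts in met-2 set-25, against 0.570 ± 0.0297 CPM from 27 and 23 counts in wild-type (0.96, SE 0.38, adjusted p = 0.751). The levels of these 3 genes are near 1 CPM or under it, and rest on 10 to 47 reads per library.

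The next smallest p-values belonged to ins-24 (log2 fold change -0.99, SE 0.505), flp-5 (1.42, SE 0.744), ins-3 and nlp-64 (0.84, SE 0.491), and the most negative changes were those of ins-3, ins-24 and ins-31 (-0.73, SE 0.472), each at adjusted p = 1 (edgeR). In a group of 7 neighbouring ins genes on chromosome I (25.4 kb), 3 members were measured and their values did not share a direction. While ins-27 had the higher values above, its neighbour ins-24 had 6 and 15 counts in met-2 set-25 against 33 and 18 in wild-type, and ins-30 had 17 and 14 against 43 and 13.

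Over the 61 genes the replicates did not overlap for 19 (31.1%), with the background at 27.2%. Of these, 15 (24.6% of the 61) were higher in met-2 set-25, where 14.5% of all genes were. The other 4 (6.56%) were lower, where 12.7% of all genes were. The median log2 fold change was 0.25, beside -0.03 over all genes tested, and 41 of 61 were positive, beside 45.9% of all genes. By class the medians were 0.22 over 15 flp genes, 0.32 over 34 nlp genes (27 positive) and -0.23 over 12 ins genes (5 positive). The median over the 61 moved with single libraries. Without wild-type replicate 1 it was -0.05, without met-2 set-25 replicate 2 it was 0.03, and without wild-type replicate 2 it was 0.64.

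Setting cec-4 embryos against wild-type ones asks what follows from losing the anchor alone. Again none of the 61 genes passed with edgeR, where 0.00717% of all genes did, that is 1 gene, and DESeq2 and limma voom called 0 members. At an unadjusted p under 0.05 there were 2 members (3.28%), against 0.939% of all genes (0.294% higher and 0.645% lower). These were nlp-6, with 2 and 2 counts in cec-4 against 5 and 15 in wild-type (log2 fold change -2.11, SE 0.871), and flp-25, with 22 and 18 counts against 43 and 41 (-0.90, SE 0.375), each at adjusted p = 1 (edgeR). The flp-25 cultures of a genotype lay close together, at 0.499 and 0.526 CPM in cec-4 and 0.941 and 0.978 CPM in wild-type. The count of members at an unadjusted p under 0.05 varied with the fit. It was 0 with DESeq2, 1 with limma voom and 4 with the replicate block in edgeR, and the share of all genes is not given for these fits.

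Most other members with a small p also had lower values in cec-4. Among them were flp-21, which encodes a ligand of the NPR-1 receptor, at 0.140 ± 0.133 CPM in cec-4 against 0.359 ± 0.167 in wild-type (log2 fold change -1.42, SE 0.724), flp-9 (-1.17, SE 0.608), flp-14 (-1.07, SE 0.631) and ins-30 (-1.01, SE 0.658). The gene nlp-40, whose peptide is released from the adult intestine to time defecation, had 1.498 and 1.26 CPM in cec-4 against 2.41 and 1.74 CPM in wild-type (-0.59, SE 0.34). The largest positive values were those of nlp-64 (0.93, SE 0.484), with 15 and 17 counts in cec-4 against 10 and 9 in wild-type, nlp-29 (0.70, SE 0.563) and nlp-34 (0.55, SE 0.449). All of these had an edgeR adjusted p of 1.

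The replicates did not overlap for 20 of the 61 genes (32.8%), against 22% of all genes. Of them 16 (26.2% of the 61) were lower in cec-4, where 10.2% of all genes were. The other 4 (6.56%) were higher, where 11.8% of all genes were. The 16 lower ones were 6 flp, 5 nlp and 5 ins genes. The median log2 fold change was -0.21 over the 61, beside -0.02 over all genes tested. It was -0.51 over the flp class, in which 13 of 15 were negative, beside 7626 of all 13951 genes tested. Without wild-type replicate 2 the median over the 61 turned to 0.08, and without cec-4 replicate 2 it was -0.34. Both comparisons share the wild-type libraries, so their values are not independent.

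The mutants were also set against each other, in the same fit of all 6 libraries, so that the filter and the estimate of spread still use wild-type. None of the 61 genes passed with edgeR, where 0.638% of all genes did, and DESeq2 and limma voom called 0. At an unadjusted p under 0.05 there were 6 (9.84%), beside 10.2% of all genes. All 6 had higher values in met-2 set-25. Of all genes, 5.97% were higher and 4.26% lower at this p. A fit of the 2 mutants alone tested 54 members, with 8 at an unadjusted p under 0.05, a smallest adjusted p of 0.126 (edgeR) and none passing. That fit also called more of all genes at an adjusted p under 0.05, with 177 higher and 11 lower. The fit of all libraries called 85 and 4. The share of all genes at the unadjusted p is not given for the mutants alone, so the 8 members have no background. In the fit of all libraries the smallest p was that of ins-27, with 20 and 26 counts in met-2 set-25 against 8 and 6 in cec-4 (log2 fold change 1.84, SE 0.464, edgeR adjusted p = 0.182). The others were nlp-6 (2.73, SE 0.841), flp-22 (1.62, SE 0.509), nlp-15 (1.17, SE 0.39), flp-21 (1.998, SE 0.71) and nlp-80 (1.32, SE 0.486), with edgeR adjusted p between 0.326 and 0.429. Both cec-4 libraries held 2 counts of nlp-6, so its fold change is loosely determined.

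Next in p were nlp-36 (0.62, SE 0.279) and flp-5 (1.603, SE 0.777), and the most negative values were those of ins-3 above, nlp-4 (-0.55, SE 0.358) and ins-37 (-0.53, SE 0.562). For ins-37 the met-2 set-25 cultures had 29 and 11 counts, against 34 and 33 in cec-4. Replicates did not overlap for 24 of the 61 genes (39.3%), against 44.9% of all genes. Values were higher in met-2 set-25 for 20 (32.8% of the 61), where 23.7% of all genes were. They were lower for 4 (6.56%), where 21.2% of all genes were. The median log2 fold change was 0.46 over the 61, beside 0.01 over all genes tested, and 0.87, 0.40 and 0.09 over the flp, nlp and ins classes. It was 0.20 without met-2 set-25 replicate 2.

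**Figure D4:**
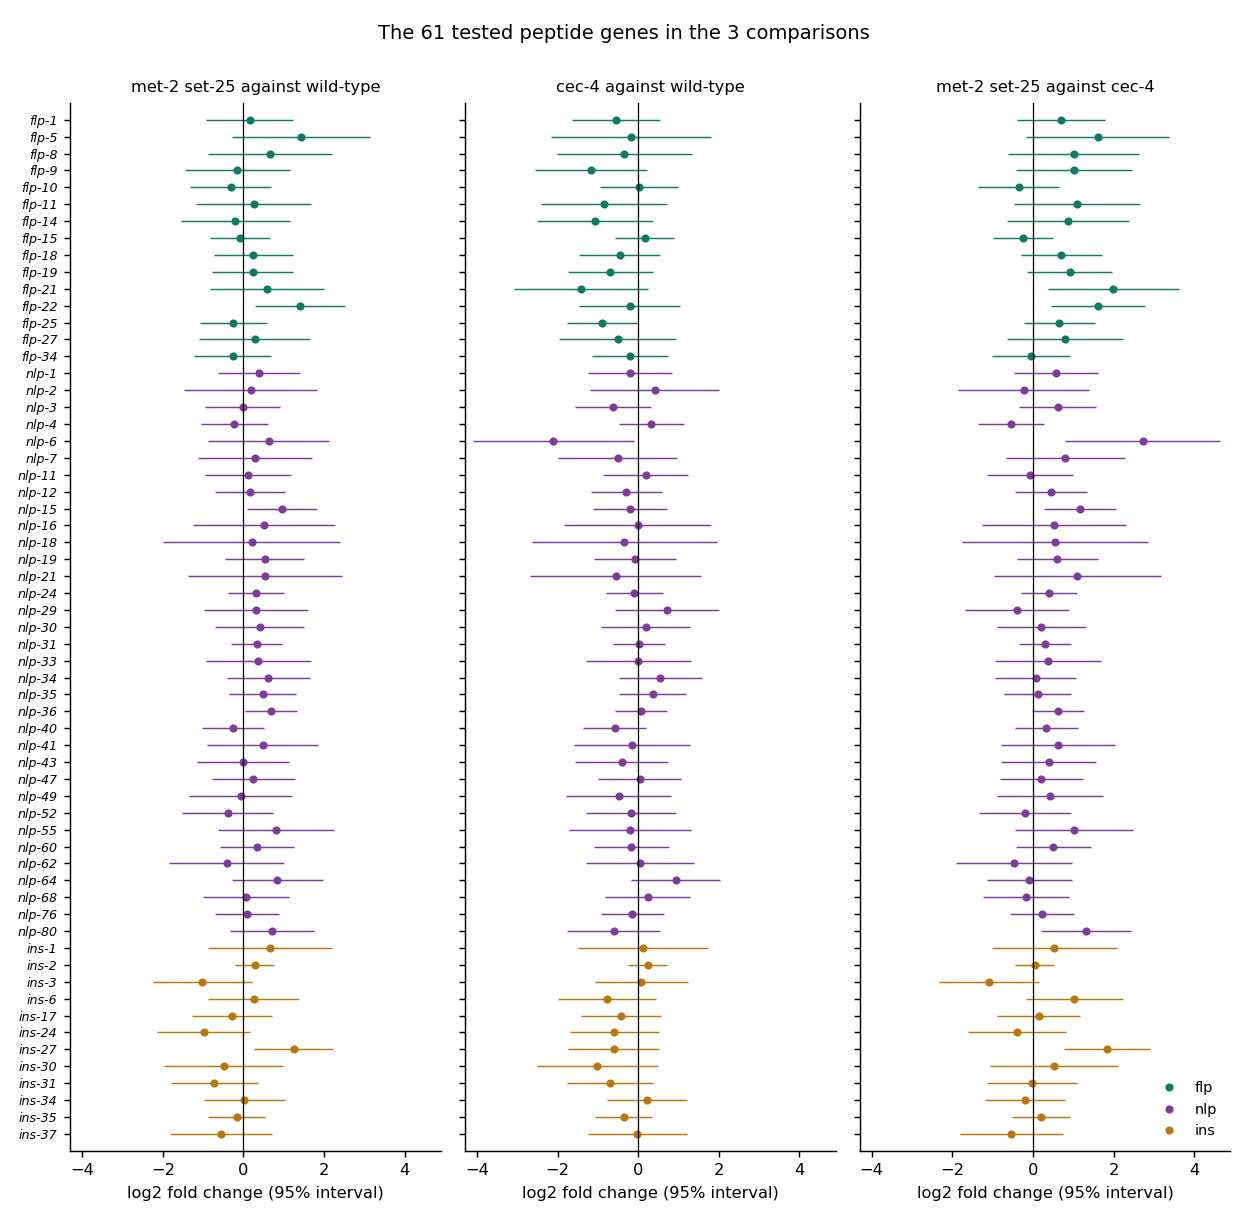
Log2 fold changes of the 61 tested peptide genes with 95% intervals from the edgeR fit (horizontal axis), by class and number, between met-2 set-25 and wild-type, cec-4 against wild-type and met-2 set-25 against cec-4. No gene passed after adjustment over all genes, and most intervals reach past a 2-fold change in at least 1 direction.

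Precision was limited at these levels. The median SE of the log2 fold change was 0.472 over the 61 genes, against 0.285 over all genes tested, between met-2 set-25 and wild-type. The 95% interval lay within 2-fold of no change for 6 of the 61 genes in that comparison, 7 in cec-4 against wild-type and 5 in met-2 set-25 against cec-4, where 58.6%, 62.5% and 54.0% of all genes did. Changes of 2-fold were thus not excluded for most members, and the absence of calls does not show that they were unchanged.

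The 77 members under the filter had at most 51 counts in all. For some of them a single library held more counts than the other 5 together, and the examples here were chosen after their values were seen. One is nlp-13, with 0 and 2 counts in met-2 set-25, 1 and 12 in cec-4, and 1 and 1 in wild-type. Another is nlp-57, with 1 and 18 counts in met-2 set-25, 2 and 3 in cec-4, and 7 and 3 in wild-type. For these examples the other replicate of the genotype did not repeat the high value. The antagonist gene ins-18 gave 20 counts and the intestinal agonist gene ins-7 gave 11 over the 6 libraries, and daf-28, an insulin-like gene outside the naming rule, gave 0.

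By position, methylation of histone H3 at lysine 9 is known to be concentrated on the arms of the autosomes. Between met-2 set-25 and wild-type, the median log2 fold change was 0.02 over the 21 measured members on autosomal arms (11 positive), 0.26 over 26 in autosomal centres (18 positive) and 0.27 over 14 on the X chromosome (12 positive). Over all genes tested the medians were 0.04, -0.04 and -0.12, with 2657 of 4725, 2954 of 6814 and 647 of 2006 genes positive. In cec-4 against wild-type the members' medians were -0.21, -0.13 and -0.40 in the same order, beside -0.01, -0.02 and -0.06 over all genes.

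Peptide gene levels differed between the cultures of a genotype as well as between genotypes. Relative to the mean of the 6 libraries, the median log2 deviation of the 61 genes was 0.06 and 0.18 in met-2 set-25, -0.18 and -0.04 in cec-4, and -0.15 and 0.14 in wild-type, with all genes between -0.03 and 0.02. Among the replicate 1 libraries and among the replicate 2 libraries alike, met-2 set-25 stood highest, wild-type next and cec-4 lowest. An edgeR fit with the replicate number as a block compares libraries of the same number. At an unadjusted p under 0.05 it left 5 members between met-2 set-25 and wild-type. In cec-4 against wild-type it left 4, and in met-2 set-25 against cec-4 it left 9. The fit without it had 4, 2 and 6, and none passed in either fit. The block also raised the calls over all genes at an adjusted p under 0.05. They rose from 92 higher and 4 lower to 183 and 8 between met-2 set-25 and wild-type, and from 85 and 4 to 280 and 15 between the mutants. The share of all genes at the unadjusted p is not given for the block fit, so its counts are not read as a result about the members. Stage and tissue markers also differed between the libraries. The summed maternal markers stood at 1749 and 1332 CPM in met-2 set-25, 1944 and 2090 CPM in cec-4, and 1996 and 1425 CPM in wild-type. By gene, 13 of 13 maternal markers had higher values in cec-4 than in wild-type (median log2 fold change 0.27), and 12 of 13 had lower values in met-2 set-25 than in cec-4 (median -0.46), while the peptide genes' medians in these comparisons had the opposite signs, at -0.21 and 0.46. Between met-2 set-25 and wild-type 2 of 13 were positive (median -0.25), beside the peptide genes' 0.25. The 7 epidermis markers summed to 948 and 1250, 1016 and 1317, and 947 and 1618 CPM in the same order, and the 21 neuron markers to 450 and 494, 474 and 570, and 510 and 561 CPM. Median log2 fold changes of epidermis markers were -0.25 (met-2 set-25 against wild-type), 0.02 (cec-4 against wild-type) and -0.23 (met-2 set-25 against cec-4). Those of neuron markers were -0.10, -0.08 and 0.03, and of intestine markers -0.11, -0.03 and -0.06. Early zygotic markers had 0.19, -0.06 and 0.22. None of these markers was at 0 in all libraries, none passed in any comparison where measured, and their part in the peptide gene values was not tested.

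**Figure D5:**
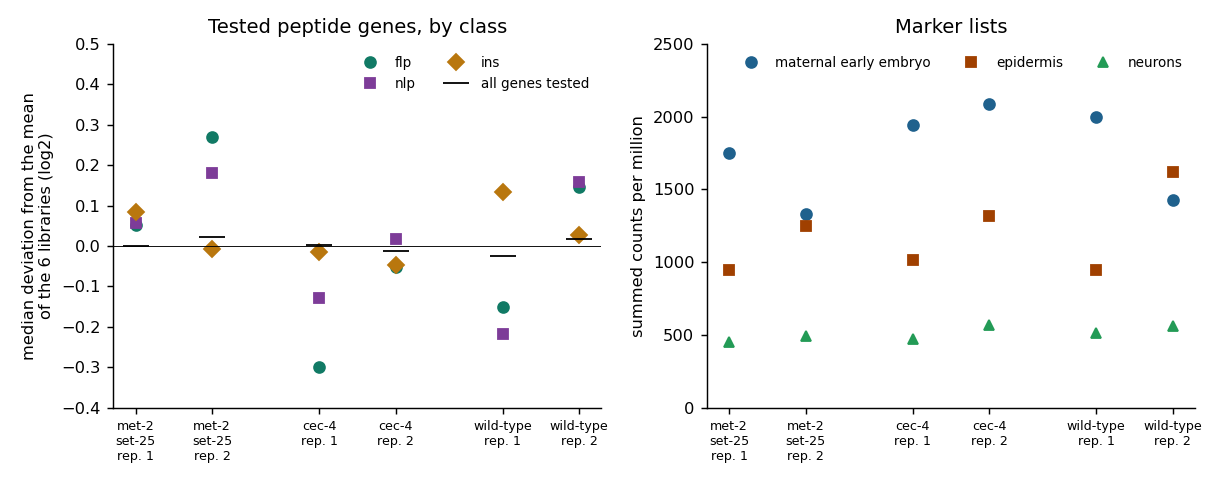
Left, median log2 deviation of the tested flp, nlp and ins genes and of all genes from the mean of the 6 libraries, for each library. Right, summed CPM of maternal, epidermis and neuron marker lists in the same libraries. The 2 wild-type cultures lie apart in nlp and flp genes and in maternal and epidermis markers.

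The machinery that makes and reads these peptides was also examined. Of 16 processing and release genes, all measured, none passed in any of the 3 comparisons, with medians of -0.19, -0.04 and -0.15 (log2) between met-2 set-25 and wild-type, cec-4 against wild-type and met-2 set-25 against cec-4. The prohormone convertase gene egl-3 stood at 3.54 and 3.74 CPM in met-2 set-25, 4.29 and 9.44 CPM in cec-4, and 3.37 and 5.78 CPM in wild-type. The carboxypeptidase E gene egl-21 ranged from 1.66 to 3.77 CPM over the libraries. Of 23 neprilysin peptidase genes, which degrade peptides, 18 were measured and none passed.

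Among 102 peptide receptor genes 69 were measured, and 1 rose in met-2 set-25. This was npr-8, a G protein-coupled receptor gene of the neuropeptide receptor family, with 100 and 155 counts (3.56 ± 0.351 CPM) in met-2 set-25, 34 and 24 counts (0.737 ± 0.0498 CPM) in cec-4, and 23 and 34 counts (0.657 ± 0.218 CPM) in wild-type. Both met-2 set-25 libraries stood above the other 4. The rise was 2.44 on the log2 scale (standard error 0.368, edgeR adjusted p = 0.0285) against wild-type and 2.27 (SE 0.366, adjusted p = 0.0392) against cec-4, where 0.659% and 0.609% of all genes rose. The call ended without either met-2 set-25 library (adjusted p = 0.2 without replicate 1 and 0.214 without replicate 2 against wild-type) and without wild-type replicate 1 (0.0929). Against cec-4 it ended with upper quartile scaling (adjusted p = 0.0561) and without any one library of the 2 mutants (0.189 to 0.366).

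Of the other receptors none passed. By smallest p these were frpr-13 (log2 fold change 1.23, SE 0.346, edgeR adjusted p = 0.31) and dmsr-3 (1.71, SE 0.501, adjusted p = 0.35) between met-2 set-25 and wild-type. The receptor gene npr-15 had 13 and 16 counts in met-2 set-25, 0 and 1 in cec-4, and 11 and 11 in wild-type, with an edgeR adjusted p of 0.069 for met-2 set-25 against cec-4 and 1 for cec-4 against wild-type. With the replicate block the adjusted p against cec-4 was 0.0428, and it lay between 0.0168 and 0.0477 with no filter, limma voom, the authors' log2 values, the mutants alone or either wild-type library left out. In cec-4 against wild-type sprr-2 (1.29, SE 0.47) and dmsr-7 (-0.99, SE 0.415) followed, both with an edgeR adjusted p of 1.

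Downstream, the insulin pathway was expressed far above most of its ligands. The receptor gene daf-2 stood at 246 and 209 CPM in met-2 set-25, 265 and 355 CPM in cec-4, and 234.5 and 272 CPM in wild-type, and its FOXO target factor gene daf-16 at 61.9 and 39.2, 71.6 and 108, and 61.3 and 80.6 CPM in the same order. Per coding length daf-2 averaged 39.0 RPKM in met-2 set-25, 53.2 in cec-4 and 43.5 in wild-type, a level that ins-2 alone of the ins genes exceeded. None of 11 insulin signalling genes and none of 6 measured DAF-16 target genes passed in any comparison. The 11 signalling genes had median log2 fold changes of -0.12, 0.06 and -0.15 in the 3 comparisons, in the order used above. None of 3 measured peptide genes outside the naming rule passed. None of 14 proneural and neuron fate regulators passed either, with medians of -0.16, 0.05 and -0.22.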

How the data were processed

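Per the labels' protocols, libraries were made with ScriptSeq v2 from 50 ng of RNA depleted of ribosomal RNA (5 µg of total RNA at the start) and sequenced in pools of 3 for 51 cycles. The authors deposited raw read counts per gene and a table of log2 normalized values, which is recovered, to within 5.2e-14, by scaling counts to a common total and adding 8. The sources used here name no aligner, counter or genome build. The deposited gene widths are multiples of 3 for 96.63% of genes, so they were read as coding lengths. The table of 500 bp windows was not used here. Symbols came from a name table (18778 genes matched) and positions from WBcel235, with no conversion.

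Counts were fitted with edgeR 4.0.16 in R 4.3.3 (filterByExpr, TMM, quasi-likelihood test), with all 6 libraries in a single fit by genotype and Benjamini-Hochberg adjustment over 13951 genes at 0.05. SE was taken as the size of the log2 fold change over the root of F, and 95% intervals use the fit's degrees of freedom. Errors after ± are SDs over n = 2. DESeq2 1.42.0 and limma 3.58.1 were alternatives. The fit between met-2 set-25 and wild-type was tested on simulated data. It recovered 31 of 100 genes changed 2-fold and 100 of 100 changed 4-fold, with 10 false calls among 141. Recovery was not split by expression level. Replicates differed beyond sampling noise (chi-square per degree of freedom 46.4 to 111). Same-numbered libraries deviated together (r = 0.181, 0.330 and 0.663 for the 3 pairs of genotypes), although the labels name no shared batch, so a replicate block was run as an alternative. The named genes are the 8 members of smallest p and the 3 highest and 3 lowest fold changes per comparison, the members of highest wild-type RPKM, and passing or smallest-p members of the gene lists. Members and lists were chosen with earlier results of these data known. P-values rest on 2 cultures a genotype.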

Additional observations from a re-analysis of the deposited data

How the results depend on the processing

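With the other scalings, filters and tools tried, no peptide gene was called at an adjusted p under 0.05 in any of the 3 comparisons. Nor was any called with only the compared genotypes in the fit or with the replicate block. The main edgeR fit also called none at an adjusted p under 0.01 or 0.1. For met-2 set-25 against cec-4, limma on the authors' log2 values gave a smallest member adjusted p of 0.0959, which is under 0.1. With the replicate block the count of members called was 0 in each comparison. The block raised the genes called among all tested, to 183 higher and 8 lower against 92 and 4 between met-2 set-25 and wild-type, and to 280 and 15 against 85 and 4 between met-2 set-25 and cec-4.

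With a library left out, the members' median log2 fold change lay between -0.052 and 0.64 between met-2 set-25 and wild-type, -0.35 and 0.083 for cec-4 against wild-type, and 0.20 and 0.50 for met-2 set-25 against cec-4. A minimum of 1 CPM, which leaves 26 members, gave -0.058 for cec-4 against wild-type and 0.24 for met-2 set-25 against cec-4. The summed level of all members in met-2 set-25 was 208 CPM, 211 with upper quartile scaling and 215 with plain library totals.

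For cec-4 against wild-type, the fold change of nlp-33 was 0.015 with RLE scaling and 0.015 with DESeq2, 0.28 with limma voom, 0.20 on the authors' log2 values and 0.19 with the replicate block, and that of nlp-31 was -0.019 with upper quartile scaling. With a library left out, the log2 fold changes against wild-type in met-2 set-25 ran from -0.048 to 0.85 for nlp-31 and from -0.31 to 1.70 for nlp-33. Those in cec-4 ran from -0.16 to 0.36 for nlp-36, from -1.82 to 0.0080 for ins-30, from -0.35 to 0.54 for nlp-31 and from -0.68 to 1.32 for nlp-33. That of ins-37 ran from -1.67 to 0.15 for met-2 set-25 against cec-4. Of 33 named members, 15 changed sign under at least 1 alternative between met-2 set-25 and wild-type, 14 for cec-4 against wild-type and 10 for met-2 set-25 against cec-4, so the genes listed here are examples. Of the single values, 21 of 480, 28 of 477 and 19 of 478 had the other sign in these comparisons, and 20, 22 and 15 of them came from leaving out a library. The cause was not tested. Low counts limit the precision of most members.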
